A study of Mus musculus with 69 samples.

Results

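*Krt7*, *Krt8*, *Krt18* and *Krt19* are the keratins of simple epithelia, and they were followed here in mouse ES cells in which the expression of *Oct3/4* (*Pou5f1*) was changed with tetracycline (Tet). Their rows were those that the annotation of the arrays or the tables of the study name as 1 of the 4 genes, 5 of 22575 rows on the arrays of the time course (4 of 5192 named genes) and 6 of 21446 rows on the arrays against a reference RNA (4 of 8978 named genes). ZHBTc4 and ZHTc6 are both derived from CGR8 ES cells and both carry a Tet-regulated *Oct3/4* transgene at every time point, 0 h included. In ZHTc6 cells (Pou5f1 +/-) 1 of the endogenous alleles is disrupted, and Tet was withdrawn (Tc-) to turn on the transgene, which raises *Oct3/4*. ZHBTc4 cells lack both endogenous alleles, so that the transgene is the only source of *Oct3/4*, and Tet was added (Tc+) to repress it. Each is 1 established line, so that the line and the direction of the *Oct3/4* change cannot be told apart. RNA of 24, 48, 72, 96 and 120 h was set on each array beside 0 h RNA of its own line, 3 samples for each line and time point, each as a dye-swapped pair of arrays (60 arrays). A further 9 arrays compared 3 samples of 0 h cells of each line, and single samples of EB5 ES cells transfected with siGFP or with siTcl1 (labelled 560 uM and 1120 uM), with Universal Mouse Reference RNA. The transfected EB5 cells had been kept for 24 h and then for a further 24 h in puromycin.

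Keratin filaments are built from obligate pairs of a type II and a type I chain, and a chain without a partner is unstable as a protein. KRT8 and KRT7 are type II chains, and KRT18 and KRT19 are type I chains. KRT8 and KRT18 form the first keratin filaments of the mouse embryo, which appear in the trophectoderm, and KRT7 and KRT19 accompany them in trophoblast and in ductal and glandular epithelia. ES cells that lose *Oct3/4* are known to take on a trophoblast fate, while a raised level is known to drive differentiation towards endoderm and mesoderm.

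The names of the keratin oligos in the time course rest on the tables of the study. The annotation gives 2 genes for each of the 5 oligos, which are *Krt7* and *Slc4a8* for Z00336, *Krt71* and *Krt8* for Z06684, *Krt7* and *Krt18* for both Z05393 and Z10859, and *Krt19* and *Krt13* for Z06307. In the annotation *Krt18* thus shares its oligos with *Krt7*, and signal from the second gene of each pair cannot be told apart here. A further 4 oligos are annotated to *Krt7* or *Krt8* together with a nearby gene and were not taken as keratins. Of these, one of *Csad* and *Krt8* fell over the 5 days in both lines, with a mean log2 ratio of -1.30 (adjusted p = 2.22e-05) after repression and -0.82 (0.000522) after induction of *Oct3/4*, and one of *Tns2* and *Krt7* rose in both (1.41 and 0.30, adjusted p = 7.47e-06 and 0.0207). The others are named *Tns2* and *Zfp740* by the tables of the study. *Krt18* is the mean of its oligos, and each other keratin was read from 1 oligo.

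The promoters of *Krt7*, *Krt8* and *Krt18* (GRCm38.p6) are given because the keratins varied together in these cells. *Krt19* varied with them as well, but the RefSeq promoters used here hold no entry for it. *Krt8* and *Krt18* are immediate neighbours among the protein-coding genes of mouse chromosome 15, on opposite strands. The 250 bases before each start are written 5' to 3' on the strand of the gene, with the matches to the motifs named below in capitals.
Krt7 (chr15:101412153-101412402, + strand): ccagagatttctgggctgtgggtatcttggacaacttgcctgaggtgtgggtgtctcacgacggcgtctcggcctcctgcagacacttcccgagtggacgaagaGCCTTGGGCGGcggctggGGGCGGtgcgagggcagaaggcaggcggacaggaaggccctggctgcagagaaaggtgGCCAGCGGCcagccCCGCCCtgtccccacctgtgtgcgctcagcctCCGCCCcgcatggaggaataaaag
Krt8 (chr15:102004343-102004592, - strand): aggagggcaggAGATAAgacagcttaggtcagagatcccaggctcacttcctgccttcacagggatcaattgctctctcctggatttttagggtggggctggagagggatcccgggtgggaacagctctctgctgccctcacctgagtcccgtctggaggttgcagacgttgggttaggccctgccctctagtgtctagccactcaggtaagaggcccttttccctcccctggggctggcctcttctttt
Krt18 (chr15:102027966-102028215, + strand): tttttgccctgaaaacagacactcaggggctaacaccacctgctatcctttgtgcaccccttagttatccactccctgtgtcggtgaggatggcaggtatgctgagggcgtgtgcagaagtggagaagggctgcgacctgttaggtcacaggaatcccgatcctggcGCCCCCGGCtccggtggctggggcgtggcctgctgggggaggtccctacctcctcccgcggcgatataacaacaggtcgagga
The GC content was 66.0% for *Krt7*, 58.0% for *Krt8* and 60.4% for *Krt18*. Motifs were searched on both strands, and matches are described as letters only. The GC box GGGCGG was found 4 times before *Krt7*, at 141, 128, 56 and 24 bases before the start, and is held by 32.7% of 32851 promoters of the same length. The AP-2 letters GCCNNNGGC lay 146 and 70 bases before *Krt7*, where the first overlaps a GC box by its last bases, and 83 bases before *Krt18* (13.7% of promoters). The GATA letters AGATAA lay 239 bases before *Krt8* (9.99% of promoters). The AP-1 letters TGANTCA (6.75% of promoters) and the octamer ATGCAAAT (1.6% of promoters) were not among the letters of the 3 windows.

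*Pou5f1* followed the labels in ZHBTc4 cells, with a mean log2 ratio to 0 h between -2.75 and -2.12 at the 5 time points, whereas in ZHTc6 cells it was between 0.12 and 0.93 and passed the test only at 120 h (0.69, adjusted p = 0.0154). The deposited files hold ratios without signal intensities, so that the depth of each value is unknown, and precision is limited by how many arrays there are. The spread of log2 ratios over an array (median absolute deviation, median of 6 arrays) was 0.434 to 0.568 at the time points of ZHBTc4 cells and, in ZHTc6 cells, 0.735 at 24 h, 0.586 at 48 h and 0.289 to 0.368 from 72 h. Array medians lay between -0.03 and 0.11. The correlation across oligos between both arrays of a dye-swapped pair was 0.0535 to 0.835 (median 0.545, 30 pairs). Low values included 0.0535 and 0.236 for samples 1 and 2 of ZHBTc4 cells at 24 h and 0.14 for their sample 1 at 48 h. Sample 3 of ZHTc6 cells at 72 h had 0.205.

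After repression of *Oct3/4* all 4 keratins rose within 24 h and reached 15.7-fold to 28.8-fold at 120 h. In these bulk samples more cells with keratins and more keratin RNA per cell cannot be told apart. All values of the time course are log2 ratios of the time point over 0 h of the same line, given for samples 1, 2 and 3, and a change was called at an adjusted p under 0.05 by limma's moderated test. *Krt8*, the type II chain that pairs with KRT18, had log2 ratios of 1.92, 2.01 and 1.84 (24 h), 3.76, 3.80 and 3.80 (48 h), 4.80, 4.71 and 4.85 (72 h), 5.12, 4.89 and 4.77 (96 h) and lastly 4.50, 4.54 and 4.69 (120 h). The samples of a time point lay close together, and those of 24 h and of 48 h did not overlap with any later time point. Its mean was 1.92 ± 0.0876 (SD, n = 3) at 24 h, a 3.79-fold rise (adjusted p = 3.47e-05), and was highest at 96 h with 4.92 ± 0.178 (30.4-fold). *Krt7*, a type II chain of trophoblast and ducts, had log2 ratios of 1.64, 1.75 and 1.91 (24 h), 2.44, 2.50 and 2.77 (48 h), 3.54, 3.45 and 3.85 (72 h), 4.04, 3.97 and 4.05 (96 h) and lastly 4.00, 3.81 and 4.10 (120 h). It rose 3.40-fold at 24 h (mean 1.76 ± 0.138, adjusted p = 4.82e-05) and 15.7-fold at 120 h (3.97 ± 0.149), the smallest rise of the 4 keratins at this time. From 72 h all its samples were below those of the other 3 keratins.

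The type I chains were less even at 24 h. *Krt18*, the partner of KRT8, had log2 ratios of 1.83, 0.45 and 1.13 (24 h), 2.83, 3.11 and 3.51 (48 h), 4.33, 4.39 and 4.71 (72 h), 5.07, 4.99 and 5.0 (96 h) and lastly 4.96, 4.69 and 4.90 (120 h). Sample 2 was the low one at 24 h, and there the array with the time point in Cy5 gave -0.04 and -0.30 for Z05393 and Z10859 while the array with it in Cy3 gave 1.23 and 0.91. The mean at 24 h was 1.14 ± 0.689 (2.20-fold, adjusted p = 0.0104), and this call did not hold with Cy5 alone (0.82, adjusted p = 0.142) in a fit of ZHBTc4 cells alone (adjusted p = 0.0721) or without moderation (0.119). From 48 h *Krt18* passed in all alternatives and reached 5.02 ± 0.0436 at 96 h (32.5-fold). *Krt19*, the smallest keratin and one without the tail domain of the other keratins, had log2 ratios of 1.59, 0.93 and 1.75 (24 h), 2.35, 2.95 and 3.51 (48 h), 3.94, 4.52 and 4.72 (72 h), 4.70, 4.63 and 4.72 (96 h) and lastly 4.67, 4.57 and 4.80 (120 h). Its samples drew together from 72 h to 96 h, where the mean was 4.68 ± 0.0487 (25.7-fold), after a 2.69-fold rise at 24 h (1.42 ± 0.436, adjusted p = 0.00114).

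**Figure D1:**
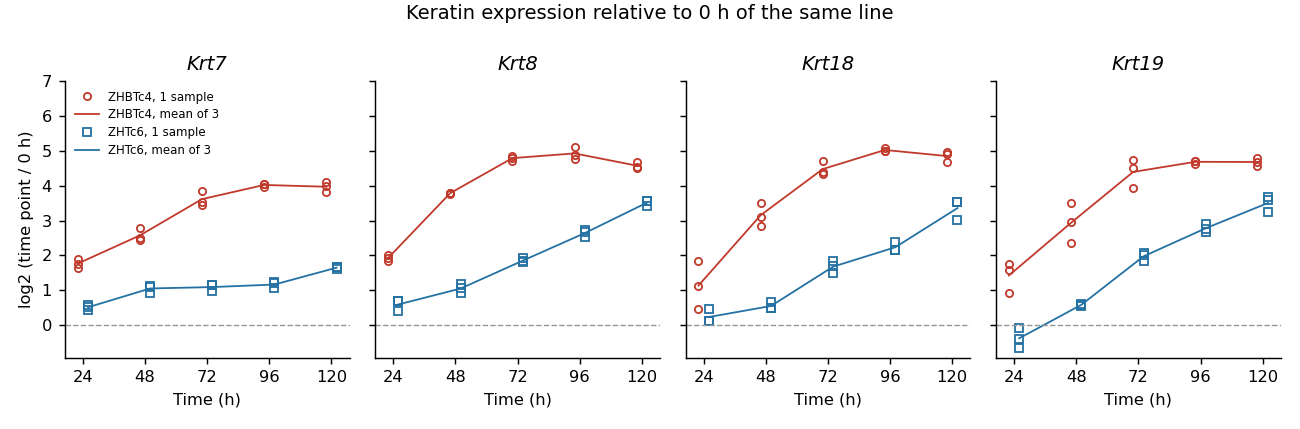
Expression of the 4 keratins in ZHBTc4 cells (red circles) and ZHTc6 cells (blue squares), as the log2 ratio to 0 h of the same line against time in hours, with 1 point for each sample and lines through the means of 3. In ZHBTc4 cells the keratins were between 3.97 and 4.85 at 120 h, and in ZHTc6 cells between 1.65 and 3.51.

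All 4 keratins were called higher at each of the 5 time points in ZHBTc4 cells. The keratin oligos are named only through the tables of the study, which lists genes for their change in these samples. Counts of keratins called in the time course, here and below, may thus in part follow from how the oligos were named. The shares of all features do not have this limit. Of the 20606 genes and unnamed oligos tested, 6.74% were called higher at 24 h. This share was 13% at 48 h, rose to 19.8% and 22.9% at the next time points, and was 22.4% at 120 h.

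After withdrawal of Tet from ZHTc6 cells the keratins rose less than in ZHBTc4 cells, although at 120 h the order turned for *Krt8*, *Krt18* and *Krt19* with arrays scaled to the same spread, and only *Krt7* and *Krt8* were called at 24 h. *Krt8* had log2 ratios of 0.69, 0.40 and 0.69 (24 h), 1.05, 0.92 and 1.18 (48 h), 1.83, 1.80 and 1.91 (72 h), 2.54, 2.66 and 2.73 (96 h) and lastly 3.42, 3.56 and 3.56 (120 h). Its 3 samples moved up together, with no overlap between time points, from a 1.51-fold rise at 24 h (0.59 ± 0.167, adjusted p = 0.00274) to 11.4-fold at 120 h (3.51 ± 0.0774, adjusted p = 1.04e-05). *Krt7* had log2 ratios of 0.59, 0.44 and 0.51 (24 h), 1.10, 0.92 and 1.13 (48 h), 0.97, 1.15 and 1.16 (72 h), 1.08, 1.23 and 1.20 (96 h) and lastly 1.68, 1.60 and 1.66 (120 h). Its samples of 48, 72 and 96 h overlapped, and those of 120 h were above them. *Krt7* passed at 24 h (0.51 ± 0.0733, adjusted p = 0.00494) and reached 3.14-fold at 120 h (1.65 ± 0.0389, adjusted p = 3.46e-05).

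The type I chains of ZHTc6 cells were called from 48 h. *Krt18* had log2 ratios of 0.12, 0.47 and 0.11 (24 h), 0.49, 0.50 and 0.66 (48 h), 1.83, 1.70 and 1.50 (72 h), 2.16, 2.16 and 2.39 (96 h) and lastly 3.52, 3.01 and 3.54 (120 h). At 24 h the mean of 0.23 ± 0.201 did not pass (adjusted p = 0.396), and Z05393 read -0.61 with the time point in Cy5 and 1.91 with it in Cy3 in sample 2, the highest of the 3. *Krt18* passed at 48 h (0.55 ± 0.0928, 1.46-fold, adjusted p = 0.00806) and was at 10.2-fold at 120 h. *Krt19* had log2 ratios of -0.65, -0.39 and -0.09 (24 h), 0.58, 0.56 and 0.61 (48 h), 2.07, 1.83 and 2.02 (72 h), 2.75, 2.68 and 2.90 (96 h) and lastly 3.59, 3.24 and 3.67 (120 h). It was the only keratin with all samples of a time point below 0. Its mean at 24 h was -0.38 ± 0.280 (adjusted p = 0.0985), and it was called lower when all time points of the line were fitted together with the replicate number as a block (adjusted p = 0.00375, and 0.00418 in the same fit without the block). At 48 h *Krt19* passed with an adjusted p of 0.0324 (0.58 ± 0.0226) and not without any 1 of the 3 ZHTc6 samples (adjusted p = 0.0928 to 0.114), and at 120 h it was at 11.3-fold (3.50 ± 0.228).

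In ZHTc6 cells 2 of 4 keratins, both of type II, were called higher at 24 h and 4 of 4 from 48 h. The share of all features called higher was 31.3% at 24 h and 35.1% at 48 h, then 8.68%, 18.4% and finally 15.6% at 120 h, so that at 24 and 48 h about 1 in 3 features was called as well. When all arrays were scaled to the same spread, 1 of 4 keratins was called at 24 h (*Krt8*) and 2 of 4 at 48 h (the type II chains). Without sample 3 of ZHTc6, too, 2 of 4 were called at 48 h.

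Over the 5 days the mean log2 ratio was 4.00 for *Krt8*, 3.19 for *Krt7*, 3.73 for *Krt18* and 3.62 for *Krt19* in ZHBTc4 cells, and 1.93, 1.09, 1.61 and 1.69 in the same order in ZHTc6 cells. All 8 values passed the test, with adjusted p between 3.42e-08 and 4.26e-05, and did so in all alternatives. For this mean 23.7% of all features were called higher in ZHBTc4 cells, and ZHTc6 cells had 29.3%.

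The rise was smaller in ZHTc6 than in ZHBTc4 cells for all 4 keratins at every time point, by the test of the difference itself, except that with arrays scaled to the same spread *Krt8* and *Krt19* were not called at 96 h and the differences of *Krt8*, *Krt18* and *Krt19* at 120 h turned positive and were not called. The difference in the 5-day mean, ZHTc6 minus ZHBTc4, was -2.07 for *Krt8* (adjusted p = 3.84e-06), -2.09 for *Krt7* (6.01e-06), -2.12 for *Krt18* (9.26e-06) and -1.93 for *Krt19* (4.03e-05), a 3.81-fold to 4.34-fold larger mean in ZHBTc4 cells. These differences were nearly of the same size although the keratins differed in their own rise, and 19.1% of all features were called lower in this comparison. For the time points the share of all features called lower was 18.7% at 24 h and 21.5% at 48 h, then 13.1%, 15.8% and finally 14.5% at 120 h. The samples of both lines overlapped only for *Krt18* at 24 h, where the difference of -0.90 (adjusted p = 0.0451) was no longer called without either sample 1 (-0.56) or sample 3 of ZHBTc4 or without any 1 of the ZHTc6 samples (adjusted p = 0.0734 to 0.128).

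The gap was widest at 72 h for *Krt8* (-2.94, 7.67-fold), *Krt18* (-2.80) and *Krt19* (-2.42), and at 96 h for *Krt7* (-2.85, 7.23-fold). At 120 h it had narrowed to -1.06 for *Krt8* (2.09-fold), -1.49 for *Krt18* (2.81-fold) and -1.18 for *Krt19* (2.26-fold), and was -2.32 for *Krt7* (4.99-fold), while with arrays scaled to the same spread it turned to 0.84 for *Krt8* (adjusted p = 0.386), 0.28 for *Krt18* (0.694) and 0.60 for *Krt19* (0.411). In that scaling *Krt8* and *Krt19* were not called at 96 h either (-0.63, adjusted p = 0.208, and -0.28, adjusted p = 0.57), and *Krt7* was called at all time points. Arrays of ZHTc6 cells from 72 h had the lower spread given above, so that the order of the lines at 120 h rests on the scale of the deposited ratios for 3 of the 4 keratins.

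The timing of the rise differed between the lines in the daily steps. In ZHBTc4 cells all 4 keratins rose from 24 to 48 h, by 1.86 for *Krt8*, 0.81 for *Krt7*, 2.02 for *Krt18* and 1.51 for *Krt19* on the log2 scale (background 3.23% of features called higher). All rose again from 48 to 72 h, by 1.00 to 1.46 (3.19%), and with arrays scaled to the same spread none of these steps from 48 to 72 h was called (0.45 to 0.93). From 72 to 96 h only *Krt7* passed (0.41, adjusted p = 0.0416, background 2.17%), a call that was lost in 5 of 6 fits without 1 sample (adjusted p up to 0.289) and that turned to -0.23 with scaled arrays. From 96 to 120 h none of the 4 passed, the lowest step being -0.35 for *Krt8* (adjusted p = 0.131, background 0.277%). Over the last 48 h, from 72 to 120 h, *Krt7* was the only keratin called in ZHBTc4 cells (0.36, adjusted p = 0.0325, background 6.92%), with -0.19 when arrays were scaled, and this call too was lost in 5 of 6 fits without 1 sample (adjusted p up to 0.264).

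In ZHTc6 cells the rise went on to the last time point. From 24 to 48 h *Krt8* (0.46, adjusted p = 0.00419), *Krt7* (0.54, 0.00252) and *Krt19* (0.96, 0.00805) passed (background 4.3%), while the step of *Krt18* was 0.32 (0.458). With arrays scaled to the same spread none of them was called, and without sample 2 of ZHTc6 none was called either (adjusted p = 0.0611 to 0.16). From 48 to 72 h *Krt8* (0.80), *Krt18* (1.13) and *Krt19* (1.39) rose, and *Krt7* stood at 0.04 (adjusted p = 0.804), beside a background of 19.5%. With arrays scaled to the same spread this step of *Krt7* was 0.89 and was called (adjusted p = 0.0489). From 72 to 96 h *Krt8* (0.79, 2.55e-05) and *Krt19* (0.80, 0.026) passed and *Krt18* (0.56, 0.121) and *Krt7* (0.07, 0.734) did not (background 7.63%). The call of *Krt19* in this step was lost without any 1 of the ZHTc6 samples (adjusted p = 0.159 to 0.187), and with all time points of the line in one fit and the replicate number as a block *Krt18* was called too (adjusted p = 0.0276, and 0.0301 without the block). From 96 to 120 h *Krt8* (0.87), *Krt7* (0.48) and *Krt18* (1.12) passed and *Krt19* did not (0.73, adjusted p = 0.0739, background 2.19%, but 0.00843 with the replicate block and 0.0108 in the same fit without it). Without sample 1 or sample 3 of ZHTc6, *Krt8* was the only keratin called from 96 to 120 h. With arrays scaled to the same spread none was called from 72 to 96 h, where *Krt7* turned to -0.18, and 1 of 4, *Krt18*, from 96 to 120 h. Over 72 to 120 h all 4 were called in ZHTc6 cells, with 1.66 for *Krt8*, 0.56 for *Krt7*, 1.68 for *Krt18* and 1.53 for *Krt19* (background 6.56%), of which *Krt7* was not called without sample 1 of ZHTc6 (adjusted p = 0.063) or with scaled arrays (0.395).

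**Figure D2:**
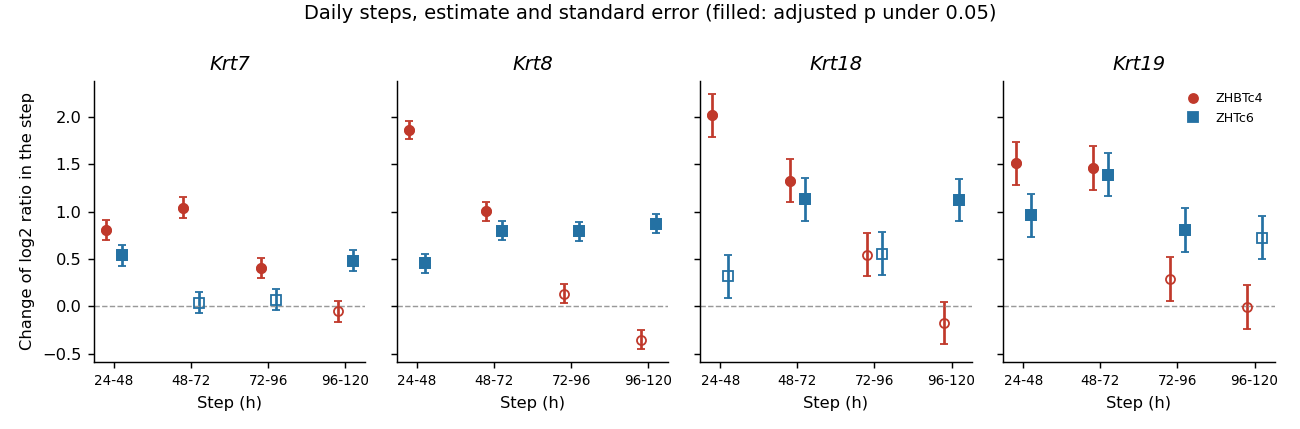
Change of the log2 ratio in each daily step (hours on the horizontal axis) for the 4 keratins, as the estimate and its standard error, with filled symbols for an adjusted p under 0.05. ZHBTc4 cells (red) made their larger steps before 72 h, and ZHTc6 cells (blue) still rose from 96 to 120 h, by 0.87 for *Krt8*, while with arrays scaled to the same spread the steps of ZHBTc4 cells from 72 to 96 h were between -0.66 and -0.23.

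Each keratin differed between the lines in at least 1 of these steps or in the late rise from 72 to 120 h. The step from 24 to 48 h was smaller in ZHTc6 cells by a log2 difference of -1.41 for *Krt8* (adjusted p = 1.02e-06) and of -1.70 for *Krt18* (0.00213), and the difference did not pass for *Krt7* (-0.27, 0.361) or *Krt19* (-0.55, 0.379), beside a background of 1.66% called lower. From 48 to 72 h *Krt7* alone passed, with a difference of -1.001 (adjusted p = 6.02e-05, background 15.3% called lower), and with arrays scaled to the same spread this turned to 0.25 (0.776), and the differences of *Krt8*, *Krt18* and *Krt19*, between -0.20 and -0.07, turned to between 1.38 and 1.70 without a call. From 72 to 96 h *Krt8* alone passed (0.66, adjusted p = 0.00893, background 2.63% called higher), and not without sample 3 of ZHBTc4 (0.0748) or sample 2 of ZHTc6 (0.0528). From 96 to 120 h *Krt8* (1.22, adjusted p = 3.78e-05) and *Krt18* (1.30, 0.0442) passed, beside 0.679% of features called higher, and *Krt18* was not called in 5 of 6 fits without 1 sample (adjusted p up to 0.34). With scaled arrays none of the 4 was called in either of these last steps. In the late rise, from 72 to 120 h, ZHTc6 cells exceeded ZHBTc4 cells by 1.88 for *Krt8* (adjusted p = 1.22e-08), 1.31 for *Krt18* (0.0133) and 1.24 for *Krt19* (0.0206), and by 0.20 for *Krt7* (0.675, background 3.16%). The calls for *Krt18* and *Krt19* in the late rise were lost in 3 and in 4 of 6 fits without 1 sample (adjusted p up to 0.139 and 0.118), and with scaled arrays neither the early difference of *Krt8* (-1.93, adjusted p = 0.129) nor the late one of *Krt19* (1.86, 0.103) was called.

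The 4 keratins varied together over the 30 samples. Their pairwise Pearson correlation was 0.976 for *Krt8* and *Krt18*, 0.975 for *Krt18* and *Krt19*, 0.964 for *Krt8* and *Krt19*, 0.92 for *Krt7* and *Krt8*, 0.911 for *Krt7* and *Krt18*, and 0.866 for *Krt7* and *Krt19*. These are descriptions, since the samples share arrays, the 0 h RNA of their line and the same time points. Around the mean of each time point and line, where the time course itself is removed, the deviations of *Krt18* and *Krt19* correlated with 0.683 and those of *Krt8* and *Krt18* with -0.119. In ZHBTc4 cells at 24 h, for example, sample 2 was the lowest for both type I chains and the highest for *Krt8*.

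The balance within a pair was read as the difference of their log2 ratios, which compares changes since 0 h and not levels. *Krt8* minus *Krt18* went from 0.79 ± 0.736 (SD, n = 3) at 24 h in ZHBTc4 cells to -0.27 ± 0.164 at 120 h, and stayed between 0.16 and 0.50 in ZHTc6 cells. *Krt8* was thus ahead of its partner in the first 3 days in ZHBTc4 cells, in every sample, and behind it in every sample at 120 h. *Krt7* minus *Krt19* went from 0.34 at 24 h to -0.71 ± 0.0529 at 120 h in ZHBTc4 cells and from 0.89 ± 0.320 to -1.85 ± 0.191 in ZHTc6 cells. In ZHTc6 cells every sample had the larger *Krt7* ratio at 24 and 48 h and the larger *Krt19* ratio from 72 h.

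**Figure D3:**
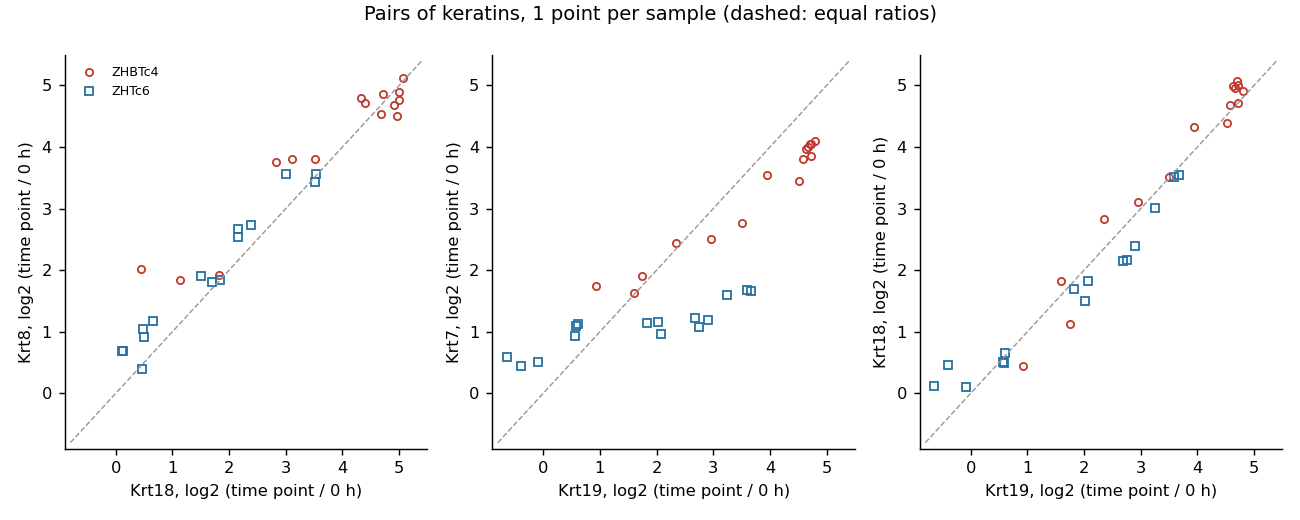
Log2 ratios to 0 h of pairs of keratins, 1 point for each of the 30 samples (ZHBTc4 red circles, ZHTc6 blue squares), with equal ratios on the dashed line. *Krt8* and *Krt18*, and *Krt18* and *Krt19*, lie near the dashed line in both lines (r of 0.976 and 0.975), whereas *Krt7* falls below it at high *Krt19*, down to a mean difference of -1.85 in ZHTc6 cells at 120 h.

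At 0 h, before Tet was changed, the lines already differed in *Krt19* and in 1 row of *Krt8*. On the arrays against the reference RNA, *Krt19* had a log2 ratio of the 0 h sample over the reference of -3.26, -3.06 and -3.24 in ZHBTc4 cells and of -1.49, -1.73 and -1.71 in ZHTc6 cells. The lines did not overlap, and *Krt19* was 2.91-fold higher in ZHTc6 cells (log2 difference 1.54, adjusted p = 0.00768). One row of *Krt8* (6688) was at -2.51, -2.46 and -2.39 in ZHBTc4 cells and at -1.15, -1.06 and -1.36 in ZHTc6 cells, 2.41-fold higher (1.27, adjusted p = 0.0086). The other row of *Krt8* (7216) was near 0 in all 6 samples, between -0.04 and 0.23, and did not separate the lines (-0.05, adjusted p = 0.781), so that the rows of *Krt8* disagree. The rows of *Krt18* were at means of -2.48 and -2.74 in ZHBTc4 and of -1.81 and -2.12 in ZHTc6 cells without overlap, and their differences of 0.67 (adjusted p = 0.0568) and 0.62 (0.074) did not pass. *Krt7* was at -0.57, -0.46 and -0.70 in ZHBTc4 cells and at -0.21, -0.36 and -0.10 in ZHTc6 cells, again without overlap, with a difference of 0.35 (0.114).

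In all, 2 of 6 keratin rows were called higher in ZHTc6 cells at 0 h and none lower, beside 4.99% of 21140 rows called higher and 4.57% called lower. Both calls depend on single samples. *Krt8* was not called without sample 1 of ZHBTc4 (adjusted p = 0.0503) or without sample 1 (0.067) or 2 (0.0691) of ZHTc6, and *Krt19* not without sample 1 (0.0651) or 2 (0.0691) of ZHTc6, while the difference stayed between 1.20 and 1.35 for *Krt8* and between 1.46 and 1.60 for *Krt19*. The reference is a mix of RNA, so that these values compare each gene with the mix, and levels of different keratins cannot be set against each other. Each 0 h sample was on a single array without a dye swap. The arrays of ZHTc6 cells carry consecutive numbers apart from those of ZHBTc4 cells, so that line and array set cannot be told apart. At 0 h Tet was present for ZHTc6 and absent for ZHBTc4 cells, and no *Pou5f1* row was tested on these arrays.

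The 0 h level and the ratios to 0 h were added for each sample to give a level relative to the reference RNA at each time point. The tables were normalized separately and no test was run, and row 6688, chosen after the values of both rows were seen, stands for *Krt8*. At 24 h the lines overlapped for *Krt8* (-0.53 ± 0.0725 in ZHBTc4 and -0.60 ± 0.118 in ZHTc6 cells, SD, n = 3), *Krt18* and *Krt19*. From 48 to 96 h ZHBTc4 cells had the higher mean for each keratin, with no overlap of samples except for *Krt19* at 48 h. At 120 h *Krt8* reached 2.12 ± 0.158 in ZHBTc4 cells against 2.32 ± 0.160 in ZHTc6 cells, and *Krt19* was at 1.49 and 1.86, both with overlap. With the other row of *Krt8*, 4.64 ± 0.134 stood against 3.53 ± 0.0329 without overlap. *Krt18* (2.24 and 1.39) and *Krt7* (3.39 and 1.42) remained higher in ZHBTc4 cells without overlap, so that on this scale, with that row of *Krt8*, *Krt7* was farthest apart between the lines.

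**Figure D4:**
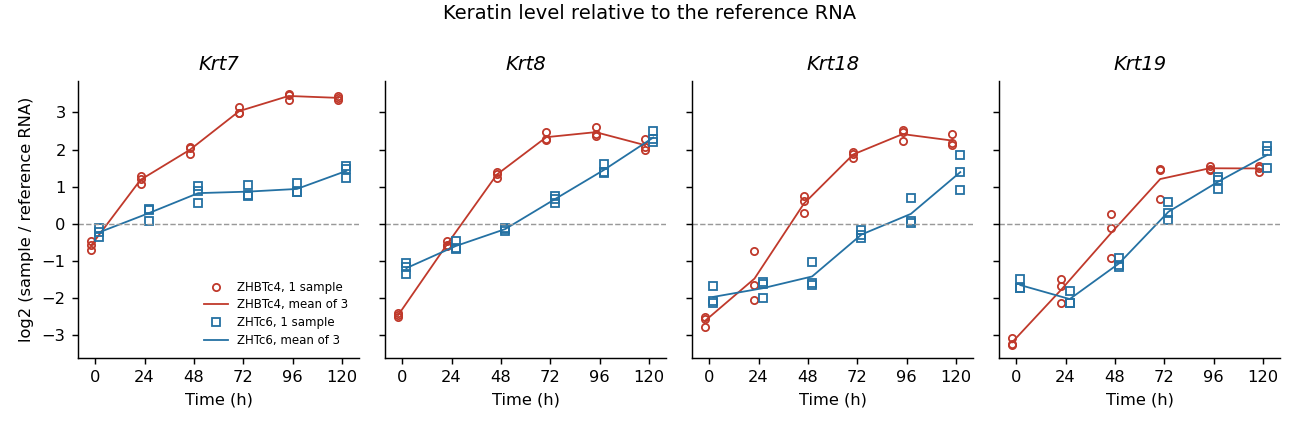
Level of the 4 keratins as the log2 ratio to the reference RNA, against time in hours, with 1 point for each sample and lines through the means (ZHBTc4 red, ZHTc6 blue). At 0 h *Krt8* (row 6688) and *Krt19* were called higher in ZHTc6 cells, and at 120 h both lines overlap for *Krt8* (row 6688, 2.12 and 2.32) and *Krt19* (1.49 and 1.86) but not for *Krt7* (3.39 and 1.42).

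Other named genes of the filament system had smaller log2 ratios over the 5 days in ZHBTc4 cells than any of the 4 keratins, and this comparison was not tested. No other keratin had a name of its own in the time course. The oligos annotated to pairs of other keratins, *Krt80* and *Krt81* or *Krt79* and *Krt71*, were at -0.23 (adjusted p = 0.0333) and -0.16 (0.0474) in the 5-day mean of ZHBTc4 cells, and ZHTc6 cells had 0.01 (0.954) and -0.07 (0.301). At 0 h *Krt10*, a keratin of stratified epidermis, was higher in ZHTc6 cells (0.36, adjusted p = 0.0497), and *Krt13* (0.32, 0.104), *Krt14* (-0.07, 0.841) and *Krt79* (0.90, 0.238) did not pass. Of 13 rows of other intermediate filament genes, which belong to 8 genes, 5 were called higher in ZHTc6 cells at 0 h and 0 lower (median difference 0.40, against 0.0047 for all rows). Of all rows 4.99% were called higher and 4.57% lower. Among the called rows were that of *Lmnb1* (1.05, adjusted p = 0.00912) and 1 of *Vim* (0.59, 0.0282). The other rows of *Vim* were not called and disagreed in sign (0.53, -0.74 and -1.21). Of 16 other intermediate filament genes 3 were named in the time course. Over the 5 days 3 rose in ZHBTc4 cells, while 2 rose and 1 fell in ZHTc6 cells. Of all features 23.7% and 29.3% were called higher in these lines, and 22.8% and 20.4% lower. *Lmnb1* (nuclear lamin B1) rose by 1.66 in ZHBTc4 cells and fell in ZHTc6 cells (-0.17), *Lmna* (lamins A and C) was at 0.97 and 0.35, and *Vim* (vimentin, the filament of mesenchymal cells) at 0.55 and 0.31.

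Of 21 genes of desmosomes and of proteins that link filaments to junctions and to the cytoskeleton, 9 were named, of which 5 rose and 2 fell in ZHBTc4 cells (median 0.50) and 3 rose and 3 fell in ZHTc6 cells (median 0.14). The median of all features was -0.0005 in ZHBTc4 and 0.07 in ZHTc6 cells. Over the 5 days 23.7% and 29.3% of features were called higher, and 22.8% and 20.4% lower. With names from the annotation alone 6 of the 21 were named. Of these, 2 rose and 2 fell in ZHBTc4 cells, and 1 rose and 3 fell in ZHTc6 cells. *Perp*, a membrane protein needed for desmosomes in skin, rose by 2.71 in ZHBTc4 cells, against 0.79 in ZHTc6 cells. *Pkp2* (plakophilin) rose by 1.57 in ZHBTc4 cells and was at 0.14 in ZHTc6 cells (adjusted p = 0.155). *Dsc2* (a desmosomal cadherin) was at 1.50 and 0.63, and *Dsp* (desmoplakin, which ties keratin filaments to the desmosome) at 1.35 and 0.71, all past the test. The members that fell in both lines were *Dst* and *Macf1*, large linkers that also bind actin and microtubules.

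Regulators of simple epithelium and trophectoderm were named for 12 of 21 genes. Of these, 6 rose and 4 fell in ZHBTc4 cells (median 0.50), and 6 rose and 3 fell in ZHTc6 cells (median 0.18). Of all features 23.7% and 29.3% were called higher in these lines, and 22.8% and 20.4% lower. *Gata3*, a trophoblast transcription factor, rose by 3.76 in ZHBTc4 cells, against 0.34 in ZHTc6 cells. *Gata2*, which acts with it in trophoblast, rose by 3.61 in ZHBTc4 cells and was at 0.04 in ZHTc6 cells (adjusted p = 0.616). *Esx1*, a placental homeobox gene, was at 2.84 and 0.32, and *Jun*, a subunit of AP-1, at 2.06 and 0.84, all past the test. *Tfap2c* (an AP-2 factor of trophoblast) rose by 1.68 in ZHBTc4 cells and fell in ZHTc6 cells (-0.71). The 4 that fell in ZHBTc4 cells were *Klf5* (-1.79), *Fos* (-1.28), *Sp1* (-0.82) and *Junb* (-0.67). Many genes of this list are named only through the tables of the study, which lists genes for their change in these samples. With names from the annotation alone 4 of the 21 were named, of which 1 rose and 1 fell in ZHBTc4 cells.

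Marker genes of other cell types were counted in each line, and no difference between the lines was tested for these lists. ES cell markers were called lower for 9 of 9 named genes in ZHBTc4 cells (median of the 5 days -2.41) and for 8 of 9 in ZHTc6 cells (-0.72), where *Pou5f1* was called higher. Trophoblast markers rose for 5 of 7 in ZHBTc4 cells (median 1.53) and for 3 of 7 in ZHTc6 cells (0.13), and 5 of these 7 genes are also among the regulators above. With names from the annotation alone 2 trophoblast markers were named, of which 0 rose in either line. Endoderm markers rose for 3 of 7 in ZHBTc4 cells (median 0.07) and 5 of 7 in ZHTc6 cells (0.32), and mesoderm markers for 1 of 5 (0.01) and 4 of 5 (1.26). By the annotation alone 1 of 5 endoderm markers rose in ZHBTc4 and 3 of 5 in ZHTc6 cells, and of 2 mesoderm markers 0 and 2 rose. Neural markers rose for 1 of 4 and fell for 2 of 4 in each line. Trophoblast markers fell for 1 of 7 in ZHBTc4 and 2 of 7 in ZHTc6 cells. Endoderm markers fell for 1 of 7 in each line, and mesoderm markers for 2 of 5 in ZHBTc4 and 0 of 5 in ZHTc6 cells. These counts stand beside the 23.7% and 29.3% of all features called higher, and the 22.8% and 20.4% called lower. At 0 h all 9 rows of ES cell markers were above the reference RNA in both lines, and the share of all rows above it was not determined. Of the 9 rows 2, of *Klf4* (-0.83, adjusted p = 0.0372) and *Esrrb* (-0.55, 0.0356), were called lower in ZHTc6 cells (median difference -0.25). Of all rows 4.57% were called lower. A second row of *Esrrb* was not called (-0.41, adjusted p = 0.32). The part of other cell types in the rise of the keratins was not tested.

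Of the other genes near the keratins on the chromosome that were measured, only *Tns2* rose. Of 60 other protein-coding genes among the 10 on each side of a keratin, 8 were measured by name. Of these, 1 rose and 7 fell in the 5-day mean of ZHBTc4 cells, while 1 rose and 2 fell in ZHTc6 cells. Of all features 23.7% were called higher and 22.8% lower in ZHBTc4 cells, and ZHTc6 cells had 29.3% and 20.4%. Some of these neighbours are named only through the tables of the study, which lists genes for their change in these samples. *Tns2* (tensin 2, a focal adhesion protein) was at 2.11 and 0.61, and its oligo is annotated to both *Tns2* and *Krt7*. The other 7 lay between -1.84 and -0.63 in ZHBTc4 cells, *Hap1* being the lowest, and *Csad* fell in both lines (-1.14 and -0.86).

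The profile most like the mean of the 4 keratins over the 30 samples, among 5188 other named genes, was that of *Anxa2* (annexin A2, a calcium-dependent membrane protein that binds actin), with r = 0.985. Among the genes next in this order were *Tax1bp3* (0.984), *Ier5* (0.977) and *Sri* (sorcin, a calcium-binding protein, 0.975). The median of all named genes was 0.166 and the 95th percentile 0.885, so that close profiles were common. *Anxa2* was first by Spearman's coefficient and within ZHBTc4 cells as well, and was at rank 66 within ZHTc6 cells, where *Serpinh1* was first (0.994). *Anxa2* was first called at a later time point than the keratins in each line, with 0.40 at 24 h (adjusted p = 0.113) and 1.99 at 48 h in ZHBTc4 cells, and with -0.15 at 48 h (0.225) and 0.65 at 72 h (0.00655) in ZHTc6 cells.

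The knockdown of *Tcl1*, which encodes a coactivator of the kinase AKT that ES cells express, was measured on 1 array for each of siGFP and both doses of siTcl1, so that differences have no replicate check and were not tested. *Tcl1* itself was lower than with siGFP by a log2 difference of -1.73 at 560 uM and -2.20 at 1120 uM. *Krt19* was at -2.50 with siGFP, -2.87 at 560 uM and -2.95 at 1120 uM, differences of -0.37 and -0.45. *Krt8* was at -3.59, -3.32 and -3.13 in row 6688 (differences 0.26 and 0.45) and at -0.24, -0.22 and -0.16 in row 7216. *Krt18* was at -3.10, -2.98 and -2.66 in row 9754 and at -3.40, -3.60 and -3.31 in row 10436, and *Krt7* at -1.57, -1.64 and -1.43. The rows of *Krt7*, *Krt8* and *Krt18* thus all had their highest value at the higher dose, and *Krt19* its lowest. In row 7216 of *Krt8* the differences were only 0.02 and 0.08, and 92.2% and 78.6% of rows differed at least as far. With these arrays scaled to the same spread 7 of the 12 differences moved by 0.1 or more and 2 turned sign, *Krt7* to 0.061 and *Krt18* row 10436 to 0.0892 at 560 uM, while *Krt19* was at -0.15 and -0.37 and *Krt8* row 6688 at 0.54 and 0.57. None of the 6 rows reached a log2 difference of 1 at either dose, which 4.71% of all rows did at 560 uM and 6.44% at 1120 uM. Differences at least as large as that of *Krt19* were found for 23.7% and 23.1% of rows.

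**Figure D5:**
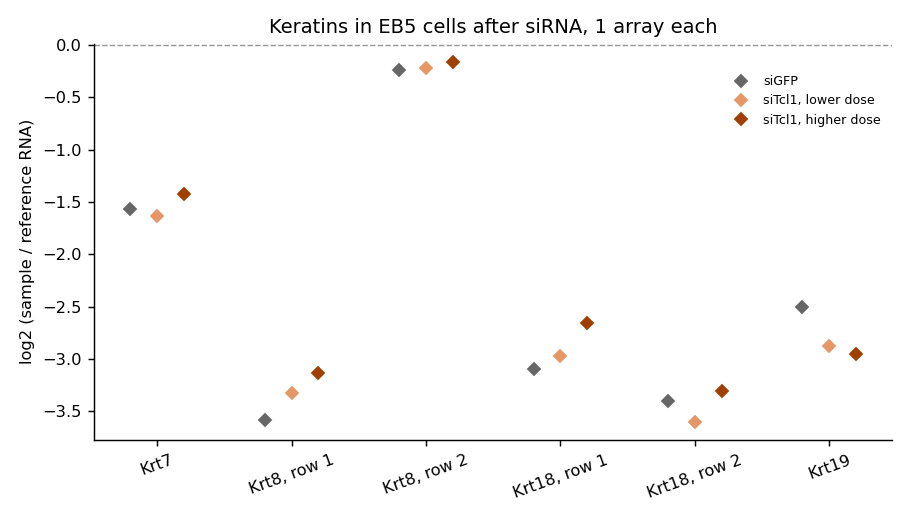
Log2 ratio to the reference RNA of the 6 keratin rows in EB5 cells with siGFP, and with siTcl1 at the lower (560 uM) and higher (1120 uM) dose, 1 array each. The points of a row lie close together, and the largest difference from siGFP is 0.45, or 0.57 with arrays scaled to the same spread.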

How the data were processed

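The authors made the deposited values with Agilent Feature Extraction, as log10 ratios of Cy5 over Cy3 that are bounded at -2 and 2, and its settings are not given in the sources used here. They were converted to log2, oriented to the time point over 0 h (or the sample over the reference RNA), and averaged over each dye-swapped pair. In all, 22148 oligos were kept after leaving out 216 rows numbered below any known oligo and 211 rows that sat at a bound on over 0.5 of the arrays. On the reference arrays 306 rows at a bound were left out. Oligos of a gene were averaged in the time course. Tests used limma 3.58.1 in R 4.3.3 with Benjamini-Hochberg adjustment over all features, with statmod 1.5.0, and were checked on simulated data. The simulated samples were independent of each other, so that this check does not cover the 0 h RNA that time points share. Both lines were fitted together. The methods call the time-course samples of a time point independent without saying whether they were separate cultures, so p-values measure only the spread between these samples. A ZHTc6 pair of 120 h labelled as sample 2 beside the 0 h RNA of sample 1 was taken as sample 1.

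Time points of the same number share a 0 h RNA. Deviations of same-numbered samples correlated with 0.098 to 0.511 in ZHBTc4 cells (median 0.332) and -0.198 to 0.394 in ZHTc6 cells (median 0.144), with block correlations of 0.339 and 0.0361.

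The members, lists and rule for named genes (4 keratins, *Pou5f1*, *Tcl1*, other keratins, up to 4 of each list with the largest change over 5 days, and the 5 closest profiles, of which 1 is not reported here) were chosen with earlier results of these data known. *Dst*, *Macf1*, *Tfap2c*, *Klf5*, *Fos*, *Sp1*, *Junb*, *Serpinh1*, *Tns2*, *Csad*, *Hap1*, *Zfp740*, *Klf4* and *Esrrb* were named after their values were seen.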

Additional observations from a re-analysis of the deposited data

Results flagged for a closer look

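Each result here is a difference between the lines that passed its own test, at an adjusted p under 0.05, given as the log2 ratio to 0 h of ZHTc6 minus that of ZHBTc4 cells. At 24 h it was -1.25 for *Krt7*, -1.33 for *Krt8*, -0.90 for *Krt18* and -1.80 for *Krt19*. At 48 h it was -1.52, -2.74, -2.60 and -2.35 in the same order, and at 72 h it was -2.52, -2.94, -2.80 and -2.42. At 96 h it was -2.85, -2.28, -2.79 and -1.91, and at 120 h it was -2.32, -1.06, -1.49 and -1.18. The mean of the 5 days differed by -2.09, -2.07, -2.12 and -1.93.

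Steps differed between the lines for *Krt8* (-1.41) and *Krt18* (-1.70) from 24 to 48 h and for *Krt7* (-1.001) from 48 to 72 h. They differed the other way for *Krt8* (0.66) from 72 to 96 h and for *Krt8* (1.22) and *Krt18* (1.30) from 96 to 120 h. From 72 to 120 h the differences were 1.88 for *Krt8*, 1.31 for *Krt18* and 1.24 for *Krt19*. The differences at 120 h for *Krt8*, *Krt18* and *Krt19* and that of *Krt7* in the step of 48 to 72 h turn sign when arrays are scaled to the same spread.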

How the results depend on the processing

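The 5-day means kept their direction and call in 144 of 144 alternatives, the time points in 702 of 720, the differences between lines in 322 of 336, the steps in 573 of 640, the differences in a step in 242 of 280 and the 0 h rows in 60 of 66. These counts include alternatives that could not move an estimate. Examples are the 120 h pair as labelled for earlier time points and a single *Krt18* oligo for the other keratins. Leaving out a sample of the other line is a further one. The counts thus overstate how firmly the results hold. Of the siTcl1 differences, 12 of 12 moved by less than 0.1 with centred arrays and 5 of 12 with scaled arrays. The causes were not tested.

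With arrays scaled to the same spread the keratins called were 1 at 24 h and 2 at 48 h in ZHTc6 cells, 2 at 96 h and 1 at 120 h for the difference between lines, 0 in the ZHBTc4 steps of 48 to 72, 72 to 96 and 72 to 120 h, 0 in the ZHTc6 steps of 24 to 48 and 72 to 96 h and 1 in that of 96 to 120 h, and, for the difference in a step, 1 from 24 to 48 h and 0 from 48 to 72, 72 to 96 and 96 to 120 h. This scaling also turned the sign of the 120 h differences of *Krt8* (0.84), *Krt18* (0.28) and *Krt19* (0.60), of the ZHBTc4 steps of 72 to 96 h of *Krt7* (-0.23), *Krt8* (-0.66), *Krt18* (-0.23) and *Krt19* (-0.43), of 96 to 120 h of *Krt7* (0.0375) and *Krt19* (0.10) and of 72 to 120 h of *Krt7* (-0.19), *Krt18* (-0.28) and *Krt19* (-0.33), of the ZHTc6 step of 72 to 96 h of *Krt7* (-0.18), of the difference in the step of 48 to 72 h of *Krt7* (0.25), *Krt8* (1.63), *Krt18* (1.38) and *Krt19* (1.70) and in that of 72 to 96 h of *Krt7* (0.0463), and of the siTcl1 differences at 560 uM of *Krt7* (0.061) and *Krt18* row 10436 (0.0892). With the time point in Cy3 alone 0 keratins were called in the ZHBTc4 steps of 72 to 96 and 72 to 120 h and 1 in the ZHTc6 step of 96 to 120 h, *Krt8* turned to 0.0199 in the ZHBTc4 step of 72 to 120 h, and for the difference in a step 0 were called from 72 to 96 h and *Krt19* turned to 0.14 from 48 to 72 h. In Cy5 alone 1 was called in each of the ZHTc6 steps of 24 to 48 and 72 to 96 h, *Krt18* turned to -0.0378 in ZHTc6 cells at 24 h and to -0.15 in the difference in the step of 72 to 96 h (-0.21 with its oligo Z10859 alone), and *Krt19* to 0.0621 in the ZHBTc4 step of 96 to 120 h. The difference in the step of 96 to 120 h called 1 keratin with either dye, with either *Krt18* oligo alone, and with the 120 h pair as labelled. Scaled arrays also added a call for *Krt7* in the ZHTc6 step of 48 to 72 h (0.89, adjusted p = 0.0489).

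Without 1 sample the count was 2 to 4 at 48 h in ZHTc6 cells, 0 to 1 in the ZHBTc4 steps of 72 to 96 and 72 to 120 h, 0 to 3, 1 to 2 and 1 to 4 in the ZHTc6 steps of 24 to 48, 72 to 96 and 96 to 120 h, 0 to 1, 1 to 2 and 1 to 3 for the difference in the steps of 72 to 96, 96 to 120 and 72 to 120 h, and 0 to 2 at 0 h. Values near 0 changed sign for the ZHBTc4 step of 96 to 120 h of *Krt19* (-0.045 to 0.0195) and *Krt7* (-0.10 to 0.0043), the ZHTc6 step of 48 to 72 h of *Krt7* (-0.0509 to 0.126), the difference in the step of 72 to 96 h of *Krt18* (-0.16 to 0.12) and the second *Krt8* row at 0 h (-0.102 to 0.0335).

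In the fit of all time points with the replicate block, *Krt19* at 24 h (-0.38), *Krt18* from 72 to 96 h (0.56) and *Krt19* from 96 to 120 h (0.73), all in ZHTc6 cells, were called, and no call was lost. Without the block that fit called 0 keratins in the ZHBTc4 steps of 72 to 96 and 72 to 120 h. At 0 h, where numbers do not pair the lines, a replicate block changed no call. With names from the annotation alone none of the 4 keratins was named, and the risen desmosome genes of ZHBTc4 cells were 2 of 6 in place of 5 of 9.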
